A study of Apis mellifera with 79 samples.

Results

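Brain gene expression was described here in nurse honey bees from hives beside corn grown from neonicotinoid-treated seed and from hives far from farmland. Nurses are the workers that tend larvae inside the hive. The 9 RNA sequencing libraries, chosen because the labels name them as nurse pools of the field study, are 9 of the 79 libraries of the series. Exposed nurses came from the colonies 2J1, 2J2, 2J3, 2J4 and 2J5 near corn, and unexposed nurses from the colonies 1J7, 2J6, 2J7 and 2J10 away from corn. Each library held the brains of 5 nurses of the same colony, with the hypopharyngeal glands and ocelli removed at dissection, and all were collected on a single day after corn was planted. A pool is therefore the unit of replication, and values of single bees were averaged before sequencing. All exposed colonies stood at a single site and all unexposed colonies at another, so that pesticide exposure and every other difference between the sites cannot be told apart.

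Neonicotinoids are insecticides that act on nicotinic acetylcholine receptors, which carry fast excitatory signals in the insect brain. Nurses eat pollen and turn it into brood food, and the change of a worker from nurse to forager goes with broad changes in brain expression. The comparison asks which genes differ in the brains of nurses that lived near treated corn, and by how much. Levels are given as log2 CPM, the log2 of read counts scaled to the size of each library, as deposited, and a log2 fold change is the mean of the exposed pools minus the mean of the unexposed pools. The table holds 10852 genes. Names could be paired with 28 of the gene IDs, 16 from a table of the study and 12 by inference from its text, and other genes are given by ID or by count alone.

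Depth was similar in both groups, with 22.8 to 36.2 M reads in genes per exposed pool and 21.5 to 26.4 M per unexposed pool, and 1 to 5 genes without a read in each pool of either group. The pools were not alike in the rest of their expression. Unexposed pool 2J6 lay at -62.0 on the first principal component, which held 42.4% of the variance, and the other 8 pools lay between -2.30 and 22.4. Across all genes its correlation with other pools was 0.942 to 0.965, and no other pair was below 0.975. In 2J6, 1480 of 10614 genes with a mean of at least 1 CPM lay more than 1 log2 unit below the median of the other pools and 90 lay above it. In the remaining pools 11 to 109 genes lay as far below and 29 to 137 as far above. Since 2J6 is 1 of 4 unexposed pools, results that rest on it are given with and without it.

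**Figure D1:**
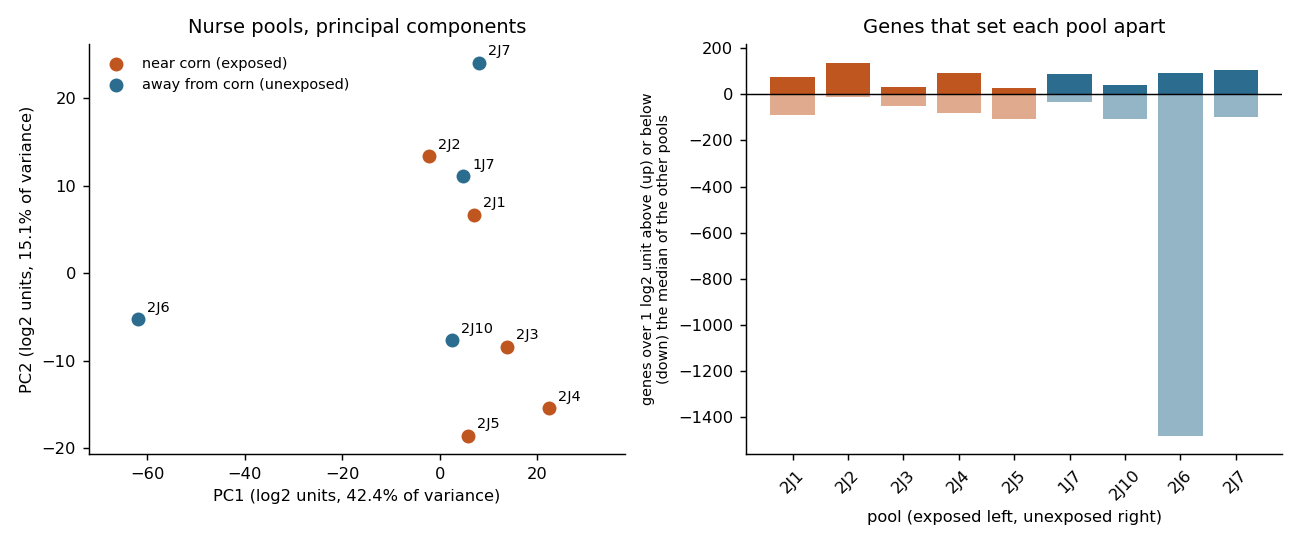
Left, the 9 nurse pools on the first and second principal components (log2 units) of genes with a mean of at least 1 CPM. Right, the number of genes more than 1 log2 unit above (up) or below (down) the median of the other pools, with exposed pools in orange and unexposed pools in blue. Pool 2J6 lies apart at -62.0, with 1480 genes below the others, while exposed and unexposed pools mix on the rest of both axes.

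Differences between exposed and unexposed pools were small for most genes. No gene of the 10852 passed a Benjamini-Hochberg adjusted p of 0.05 in limma (0.0%, lowest adjusted p = 0.658). At an unadjusted p below 0.05, 271 genes (2.5%) were higher and 183 genes (1.69%) lower in exposed pools. The median absolute log2 fold change was 0.132 and the median standard error 0.133. For 9334 genes (86.0%) the 95% interval of the fold change lay inside -1 to 1, and for 6234 genes (57.4%) it lay inside -0.5 to 0.5. A log2 fold change above 1 was estimated for 30 genes and one below -1 for 41 genes. The groups did not overlap in 162 genes, with all exposed pools on the higher side in 72 (0.663%) and on the lower side in 90 (0.829%). These genes had small differences, with a median absolute log2 fold change of 0.306, and only 4 of them exceeded 1 upward and 3 downward. With so few pools, some genes separate fully by chance, and some reach an unadjusted p below 0.05 by chance. A lack of overlap in a gene is therefore by itself no evidence of a difference. In both directions together 4.18% of genes reached an unadjusted p below 0.05, no more than that threshold lets through by chance alone.

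A negative binomial test on the reads recovered from the deposited values called 8 genes (0.0737%), 1 higher and 7 lower. All of them are in the study's own list of 9 genes for field nurses, and the remaining gene of that list, CPR5, had an adjusted p of 0.0542 in that test. The list was chosen on these libraries, so it is no independent evidence of their direction. Its count depended on single pools, with 4 genes called without 2J3, 2J4, 2J5 or 2J7, 5 without 1J7, 12 without 2J2, 14 without 2J10, 15 without 2J1 and 16 without 2J6. Without 2J6 limma again called 0 genes, with 403 at an unadjusted p below 0.05, 210 higher and 193 lower, and the median standard error was 0.111. Of the 454 genes at that p over all pools, 257 (56.6%) were also there without 2J6, and they made up 63.8% of those found without it. The pools within a group spread more away from corn. The median SD over genes was 0.141 log2 units among exposed and 0.239 among unexposed pools, and 0.155 among unexposed pools without 2J6.

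The largest fold changes among named genes were those of alpha-amylase and a chymotrypsin inhibitor, both lower near corn in every pool. Alpha-amylase (LOC406114, GB49854) cleaves starch and is known from the hypopharyngeal glands of worker bees. It stood at 1.60, 3.16, 1.85, 1.45 and 1.96 log2 CPM in exposed pools 2J1 to 2J5, against 8.94 in 1J7, 4.08 in 2J10, 3.58 in 2J6 and 8.42 in 2J7. Every exposed pool lay below every unexposed pool, and the unexposed pools formed a high pair, 1J7 and 2J7, and a low pair. In reads, exposed pools held 59 to 227 and unexposed pools 12761, 370, 327 and 8312. The means were 2.01 ± 0.68 (SD, n = 5) and 6.26 ± 2.81 (SD, n = 4), and the log2 fold change was -4.25 (95% interval -6.64 to -1.86, limma adjusted p = 0.658). Within sequencing lane 1 the fold change was -4.13, from 2 pools against 2, and within lane 2 it was -1.83, from 3 pools against 2J6 alone. Without 1J7 and 2J7 it was -1.83.

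The chymotrypsin inhibitor (LOC725114, GB50118), which blocks a digestive protease, showed the same order of groups. Exposed pools 2J1 to 2J5 held 0.05, 1.95, -0.13, 0.21 and -0.48 log2 CPM, against 6.07 in 1J7, 3.06 in 2J10, 3.18 in 2J6 and 6.85 in 2J7. The groups did not overlap, and the lower pair of unexposed pools lay about as far above most exposed pools as it lay below the higher pair. Its log2 fold change was -4.47 (95% interval -6.31 to -2.63, limma adjusted p = 0.658), with -3.57 in lane 1, -3.31 in lane 2 and -2.80 without 1J7 and 2J7. The lane values were similar, but lane 2 rests on 2J6 as its only unexposed nurse pool. Groups that do not overlap give the same sign in any split of the pools, so the likeness is no separate evidence. By the negative binomial test the adjusted p of the chymotrypsin inhibitor was 3.61e-09.

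The lipase LOC551268 (GB43510), an enzyme that splits triacylglycerols, did not separate the groups. It stood at -1.30, -1.52, -2.66, -1.97 and -1.96 log2 CPM in exposed pools, against 3.40 in 1J7, -1.96 in 2J10, -3.75 in 2J6 and 1.99 in 2J7. Only 1J7 and 2J7, with 273 and 95 reads, lay above the exposed pools, and 2J6 had 0 reads. The log2 fold change of -1.80 (95% interval -4.62 to 1.01) was 0.98 without that pair, a change of direction, and -3.03 without 2J6 (unadjusted p = 0.0134 in limma). The negative binomial test called the lipase lower over all pools, at a log2 fold change of -4.09 (adjusted p = 0.0474). The unnamed gene GB43247 was also high in 1J7 and 2J7 alone, at 8.03, 7.79, 7.15, 6.05 and 7.33 log2 CPM in exposed pools, against 11.37 in 1J7, 7.72 in 2J10, 7.04 in 2J6 and 11.04 in 2J7. Its log2 fold change was -2.02 over all pools and -0.11 without the pair. A pair of further unnamed genes of the study's list had the same high pools, at 5.72 and 5.74 log2 CPM in 1J7 and 2J7 for the first and 7.96 and 7.90 for the second.

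GB42310, also unnamed, was highest in another pool. It stood at -1.95, -0.29, -2.43, -0.33 and -1.80 log2 CPM in exposed pools, against 1.34 in 1J7, 0.17 in 2J10, 4.34 in 2J6 and 0.48 in 2J7. The groups did not overlap, but the unexposed pools other than 2J6 held only 23 to 64 reads and the exposed pools 4 to 19. Its log2 fold change was -2.94 (95% interval -4.80 to -1.09, limma adjusted p = 0.658) and -2.02 without 2J6.

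Among the exposed pools, 2J2 held the highest level of both alpha-amylase and the chymotrypsin inhibitor, at 227 and 97 reads, although it remained below every unexposed pool. Pools 1J7 and 2J7 were also often the highest pair among genes chosen for a wide spread between the unexposed pools. Of 185 genes with an SD above 1 log2 unit among unexposed pools and a mean of at least 1 CPM, these 2 pools were the highest pair in 79. Each other pair of unexposed pools was highest in 11 to 38. A low level in the other pools adds to this count. Pool 2J6 lay more than 1 log2 unit below the other unexposed pools in 55 of these genes and 2J10 in 31. The same held for 1J7 in 9 and for 2J7 in 16. Whether 1J7 and 2J7 share a feature past the named genes was not tested. Pool 2J7 also held the largest share of its reads in its 10 most abundant genes, at 7.55%. It is the only field nurse pool of its lane, which otherwise held its forager pool and apiary bees, so that among the nurse pools this pool and its lane cannot be told apart.

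**Figure D2:**
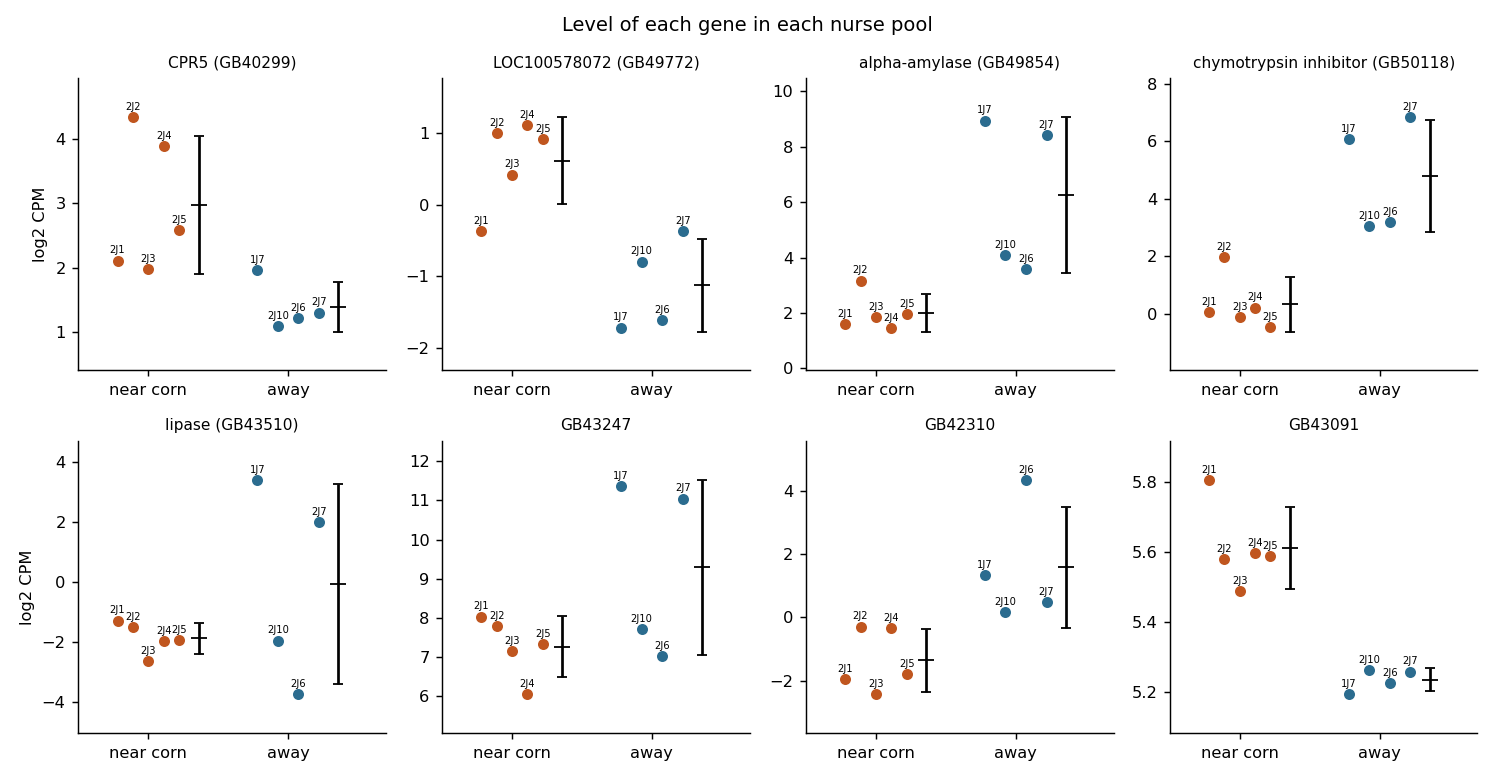
Level of 8 genes in log2 CPM in each nurse pool, near corn on the left (orange) and away on the right (blue), with the mean and SD of each group in black. Alpha-amylase and the chymotrypsin inhibitor lie lower in all exposed pools, the lipase and GB43247 are high in 1J7 and 2J7 alone, and CPR5, LOC100578072 and GB43091 lie higher in all exposed pools.

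The forager pools of the same colonies put these levels in context, with the limit that each caste's table was scaled on its own. In foragers alpha-amylase averaged 7.66 ± 0.27 log2 CPM near corn and 8.31 ± 0.82 away (SD, n = 5 each), and GB43247 averaged 11.36 ± 0.76 and 11.43 ± 0.90 (SD, n = 5 each). The lipase averaged 2.95 ± 1.26 in exposed and 2.87 ± 1.60 in unexposed foragers (SD, n = 5 each). Nurse pools 1J7 and 2J7 thus stood at forager levels for these genes and the other nurse pools far below.

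This was examined with genes whose exposed foragers all lay more than 1 log2 unit above all exposed nurses. For an exposed pool its own colony was left out of this choice. Unexposed pools took no part in the choice and share the same genes. Among 14 such genes, 5 of which are genes of the nurse list (alpha-amylase, the lipase, GB43247 and the pair of further unnamed genes), 10 were nearer to the forager mean than to the nurse mean in 2J7 and 6 in 1J7, against 0 in 2J6 and 0 in 2J10. The gap of 1 was set after a gap of 2 log2 units had left alpha-amylase, the lipase and GB43247 alone, with 3 of 3 nearer to foragers in 1J7 and in 2J7 and 0 of 3 in 2J6 and in 2J10. Since the genes of the nurse list had prompted the question, the count was repeated without them, and 5 of 9 genes were nearer to foragers in 2J7, 1 of 9 in 1J7 and 0 of 9 in 2J6 and in 2J10. In 1J7 the forager-like levels were thus mostly those of the nurse list itself. In exposed pools, with the genes of the nurse list kept, the count was 5 of 36 in 2J1, 5 of 21 in 2J2, 1 of 22 in 2J5 and 0 of 16 in both 2J3 and 2J4. The choice asked for low levels in exposed nurses, which favours genes that are low near corn. Exposed pools were also scored on other and larger sets of genes. Counts of exposed and unexposed pools therefore cannot be compared. Among 10 genes set apart in the other direction, 4 in 2J7, 1 in 1J7, 1 in 2J6 and 0 in 2J10 were nearer to foragers, and in exposed pool 2J1 the count was 19 of 38. The part of these forager-like levels in the amylase difference was not tested. In pooled brains more cells of a type and more RNA per cell cannot be told apart.

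**Figure D3:**
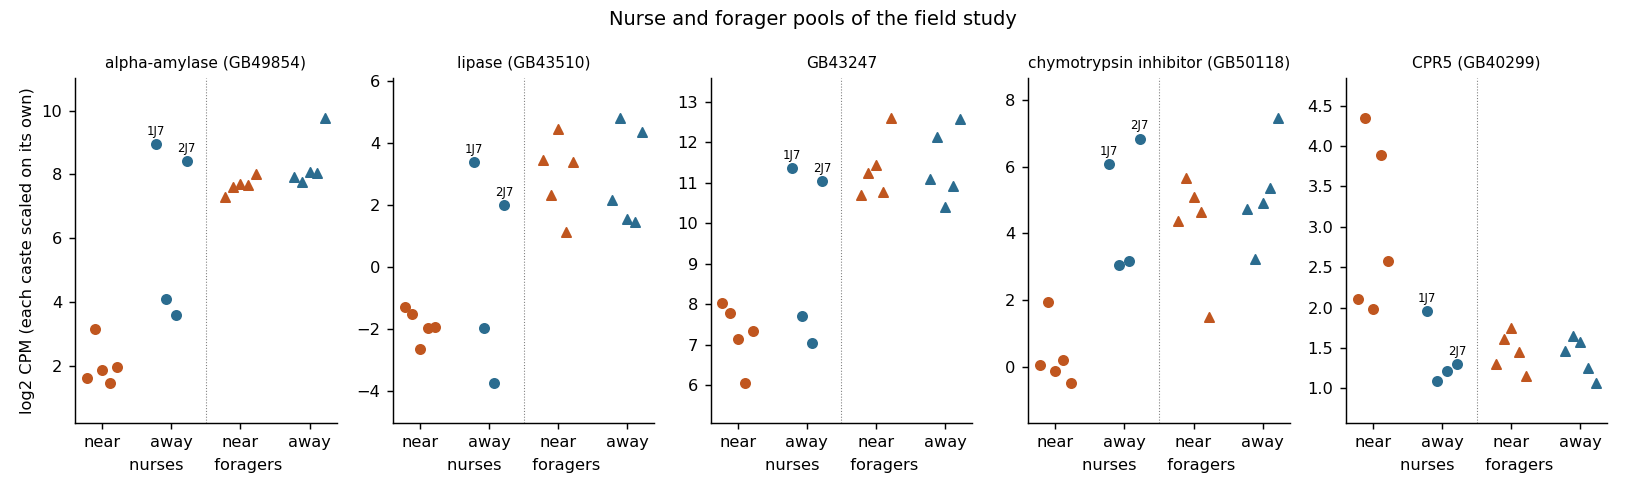
Level of 5 genes in log2 CPM in the field pools, from left to right exposed nurses, unexposed nurses, exposed foragers and unexposed foragers (circles for nurses, triangles for foragers). Nurse pools 1J7 and 2J7 lie at the level of foragers for alpha-amylase, the lipase and GB43247, and CPR5 is highest in exposed nurses. For the chymotrypsin inhibitor forager pools run from 1.494 to 7.455, a range that also holds nurse pools 2J10, 2J6 and 2J2.

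Of the nurse list, 2 genes averaged higher near corn. Cuticular protein 5 (CPR5, GB40299), a member of the family of chitin-binding cuticle proteins, stood at 2.11, 4.34, 1.98, 3.89 and 2.58 log2 CPM in exposed pools, against 1.96 in 1J7, 1.09 in 2J10, 1.22 in 2J6 and 1.30 in 2J7. The groups did not overlap, but exposed pool 2J3 and unexposed pool 1J7 were nearly level. The log2 fold change was 1.59 (95% interval 0.50 to 2.67, limma adjusted p = 0.658), with 1.71 in lane 1 and 1.60 in lane 2. Without 2J2, the highest pool, it was 1.25. Field foragers near corn did not show such a level, at 1.45 ± 0.24 log2 CPM in exposed and 1.40 ± 0.24 in unexposed foragers (SD, n = 5 each).

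LOC100578072 (GB49772), an uncharacterized gene, stood at -0.37, 0.99, 0.42, 1.104 and 0.91 log2 CPM in exposed pools, against -1.71 in 1J7, -0.80 in 2J10, -1.61 in 2J6 and -0.37 in 2J7. These levels rest on 19 to 59 reads in exposed pools and 6 to 17 reads in unexposed pools, and 2J1 and 2J7 met at the boundary. Near corn it was higher by 1.73 log2 units (95% interval 0.85 to 2.62, limma adjusted p = 0.658), with 1.57 in lane 1 and 2.42 in lane 2. It was the only gene called higher by the negative binomial test, at an adjusted p of 0.0482.

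GB43091 is an unnamed gene chosen for its low p among genes whose groups do not overlap. That choice favours a small spread within groups and a stable estimate, so neither is evidence of a difference. Exposed pools held 5.81, 5.58, 5.49, 5.60 and 5.59 log2 CPM, against 5.19 in 1J7, 5.26 in 2J10, 5.23 in 2J6 and 5.26 in 2J7. The spread within each group was a fraction of the difference, with a log2 fold change of 0.38 (95% interval 0.20 to 0.55, limma adjusted p = 0.658) and 0.33 to 0.41 when each pool was left out in turn. GB42734, chosen in the same way, held 1.49, 1.59, 1.83, 2.08 and 2.03 log2 CPM in exposed pools, against 0.97 in 1J7, 0.53 in 2J10, 0.47 in 2J6 and 1.28 in 2J7. It had a log2 fold change of 0.99 (95% interval 0.50 to 1.49) in nurses and 1.01 in foragers of the same sites.

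The transcription factors that the study lists from foragers of these colonies were followed in nurses, and 16 of 16 were measured. These proteins switch other genes on or off, and many are known from brain and eye development in flies or vertebrates. Of the 16, 14 averaged higher and 2 lower in exposed nurses, with a median log2 fold change of 0.34, while over all genes 5289 of 10852 (48.7%) were above 0 with a median of -0.01. None passed the adjusted test, and 0 of 16 were higher and 1 lower at an unadjusted p below 0.05, against 2.5% and 1.69% of all genes. In all 14 that averaged higher, pool 2J6 held the lowest level of the 9 pools. Over all genes 2J6 was lowest in 3508 of 10852.

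Without 2J6 the difference was close to 0. The 16 then had a median log2 fold change of 0.03, with 11 above 0 and 5 below. Those that had averaged higher lay between -0.08 and 0.19. With 1J7 and 2J7 left out instead, so that 2J10 and 2J6 were the unexposed pools, the same genes lay between 0.54 and 1.20. The estimates thus depended on which unexposed pools were kept. Mblk-1 (GB50048), first known from the mushroom bodies, the learning centre of the bee brain, was the most abundant of the 16. It stood at 10.38, 10.15, 10.31, 10.14 and 9.72 log2 CPM in exposed pools, against 10.36 in 1J7, 9.63 in 2J10, 8.67 in 2J6 and 10.16 in 2J7. The unexposed pools other than 2J6 lay within or next to the exposed range and 2J6 well below it, and the log2 fold change was 0.43 (95% interval -0.25 to 1.12) with 2J6 and 0.09 without it.

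The forkhead gene Foxp (GB40150), which is needed for learning in flies, gave 6.75, 6.31, 6.55, 6.73 and 6.41 log2 CPM in exposed pools, against 6.59 in 1J7, 6.36 in 2J10, 5.19 in 2J6 and 6.71 in 2J7. The estimate was 0.34 with 2J6 and -0.0029 without it. The LIM homeobox gene Lhx9 (LOC726415, GB45063) had the largest estimate of the group, 0.61 (95% interval -0.23 to 1.45), and 0.17 without 2J6. Sox-2 (LOC408411, GB50686), which keeps neural progenitors in vertebrates, had 0.44 and 0.02 without 2J6. The gene LOC410253 (GB44976), named ataxin-2 homolog but listed by the study under the Drosophila clock gene vrille, a conflict of names that was not resolved, had 0.46 and 0.19, and the retinal homeobox gene (LOC724983, GB49611) had 0.39 and 0.14.

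Single pools also stood out among the developmental regulators at low levels. Unexposed pool 1J7 held the highest level of the SIX3 gene (LOC551364, GB49751), at 5.12 log2 CPM against 3.66 to 4.56 in exposed pools. It was highest as well for the dachshund homologue (LOC411009, GB44042), at 5.28 beside 3.95 to 4.92 in exposed pools, and for the slp2 gene (LOC724740, GB44229), at 4.67 beside 3.49 to 4.51. Without 2J6 their fold changes were 0.02 for SIX3, -0.08 for dachshund and 0.02 for slp2, and without 1J7 they were 0.71, 0.59 and 0.68, against 0.30, 0.25 and 0.35 over all pools. Pool 2J5 held the lowest exposed level of these 3 genes.

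Kr-h1 (kruppel homolog 1, GB43022), which responds to juvenile hormone in insects, was an exception. It stood at 2.80, 3.16, 2.15, 2.37 and 3.57 log2 CPM in exposed pools, against 3.49 in 1J7, 3.31 in 2J10, 3.12 in 2J6 and 4.74 in 2J7. Of the exposed pools 3 lay below every unexposed pool and 2J5 lay above 3 of the 4 unexposed pools. The log2 fold change was -0.86 (95% interval -1.69 to -0.02, unadjusted p = 0.0448 and adjusted p = 0.658 in limma). It was -1.04 without 2J6 and -0.50 without 2J7, the highest pool, and -0.42 in each lane. Foragers of the same sites gave -0.61 ± 0.11 (standard error) for Kr-h1, at a limma adjusted p of 0.0956. The zinc finger gene LOC411780 (GB49050) was lower in foragers too, by -0.38, but differed little in nurses, at 6.22 to 6.46 log2 CPM in exposed and 6.30 to 6.51 in unexposed pools, with a fold change of -0.09.

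**Figure D4:**
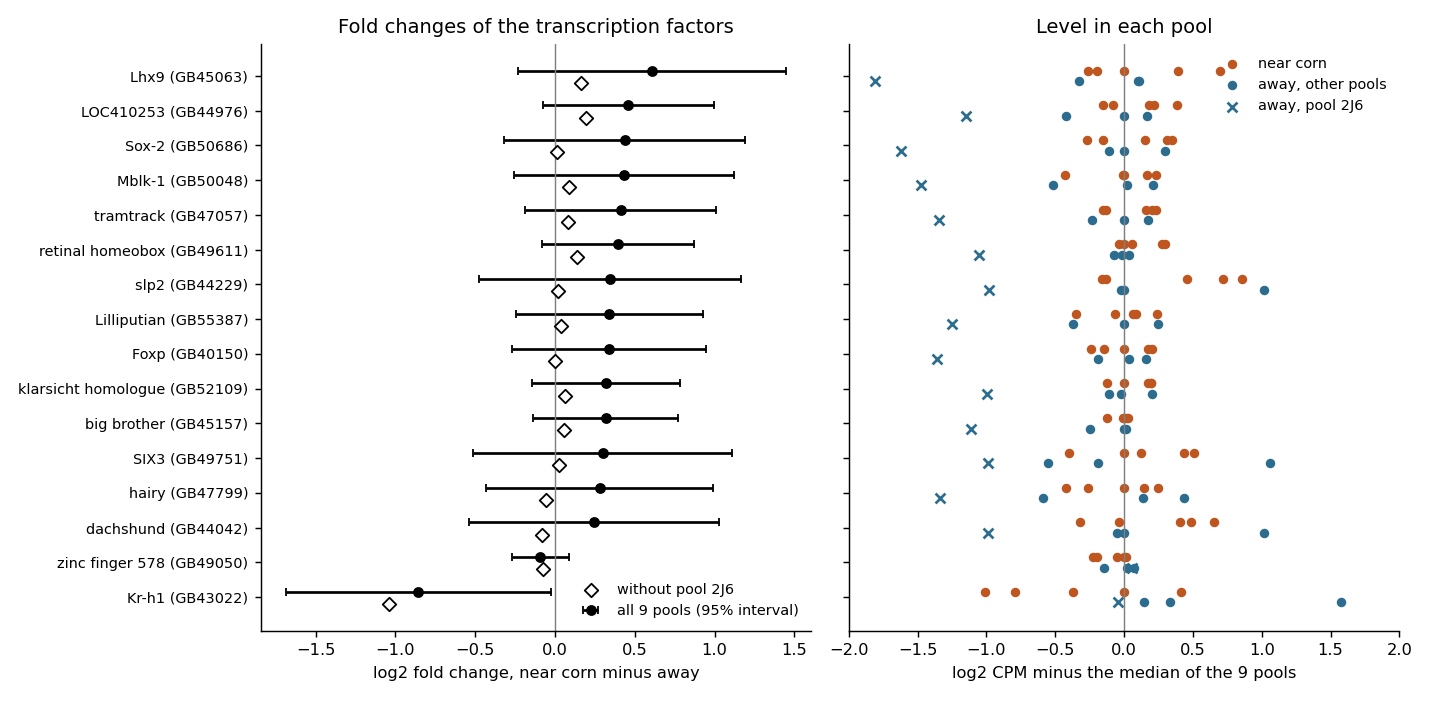
Left, log2 fold change of 16 transcription factors, exposed minus unexposed nurses, over all 9 pools with its 95% interval (filled) and without pool 2J6 (open). Right, log2 CPM of each pool minus the median of the 9 pools, exposed in orange above and unexposed in blue below. The 14 positive estimates, 0.25 to 0.61, move to -0.08 to 0.19 without 2J6, whose crosses lie to the left of all other pools in these genes.

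Some genes, several of them chosen after their values were seen, were present in single pools and nearly absent in others, with such pools in either group. An SD above 1 log2 unit was found in 160 genes among exposed pools and 237 among unexposed pools, or 179 without 2J6. AMP deaminase 2 (GB44610), an enzyme that turns AMP into IMP, had 331 reads in 2J3 and 315 in 2J5, and 0 to 3 reads in the other exposed pools and in every unexposed pool. The log2 fold change was 2.47 (95% interval -1.06 to 5.99), carried by the bees of 2 colonies. In foragers, colony 2J3 was again high, at 3.53 log2 CPM, but 2J5 was not, at -2.38, and the unexposed colonies 2J10, 2J6 and 2J7 were high, at 3.81, 2.76 and 2.84. High and absent pools thus occurred on both sides of the comparison.

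The cuticle protein gene LOC725804 (GB48862), for a structural protein of the body wall, had 0, 80, 3, 30 and 620 reads in exposed pools 2J1 to 2J5, against 178 in 1J7 and 1 in each other unexposed pool. Its log2 fold change of 1.65 ranged from 0.59 without 2J5 to 3.12 without 1J7. The non-muscle myosin heavy chain (LOC100576096, GB40548) had 4.95, 1.86, 1.67, 1.22 and 1.28 log2 CPM in exposed pools, against 2.00 in 1J7, 1.24 in 2J10, 6.52 in 2J6 and 5.06 in 2J7. A single exposed pool and 2 unexposed pools were high, and the log2 fold change of -1.51 (95% interval -4.03 to 1.01) was -0.57 without 2J6. In foragers it was 1.75, the opposite sign. The high nurse pool 2J1 came from a colony that was also high in foragers, at 5.71 log2 CPM, while 2J3 was high only in foragers, at 6.78. The colonies of the high unexposed nurse pools 2J6 and 2J7 were at 1.99 and 2.48 in foragers, near the low end of the forager pools.

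Bestrophin-4 (LOC551782, GB48190), of a family of chloride channels, stood at 3.44 log2 CPM in unexposed pool 1J7 and between -0.14 and 0.64 in all others. In foragers the unexposed colonies 1J9, 2J10 and 2J7 were high, at 3.58, 2.81 and 4.42. All other forager pools, with every exposed colony among them, lay between -0.961 and 0.305. The high pools of this gene were thus unexposed in both castes. A gene for a putative mediator subunit 26 (LOC113218918, GB51407), named after the complex that links transcription factors to RNA polymerase, stood at 2.46 in exposed pool 2J1 and between -1.46 and 0.21 in the others. Forager colony 2J1 was again the highest for this gene, at 3.17. Unconventional myosin-IXb (LOC551706, GB54226) varied little, at 4.11 to 4.52 log2 CPM in exposed and 3.65 to 4.44 in unexposed pools, with a log2 fold change of 0.23 (95% interval -0.15 to 0.60). The fatty acid hydroxylase gene LOC409360 (GB40899) stood at -0.55 to 1.32 in exposed and -0.53 to 0.09 in unexposed pools, with its highest level in 2J2.

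**Figure D5:**
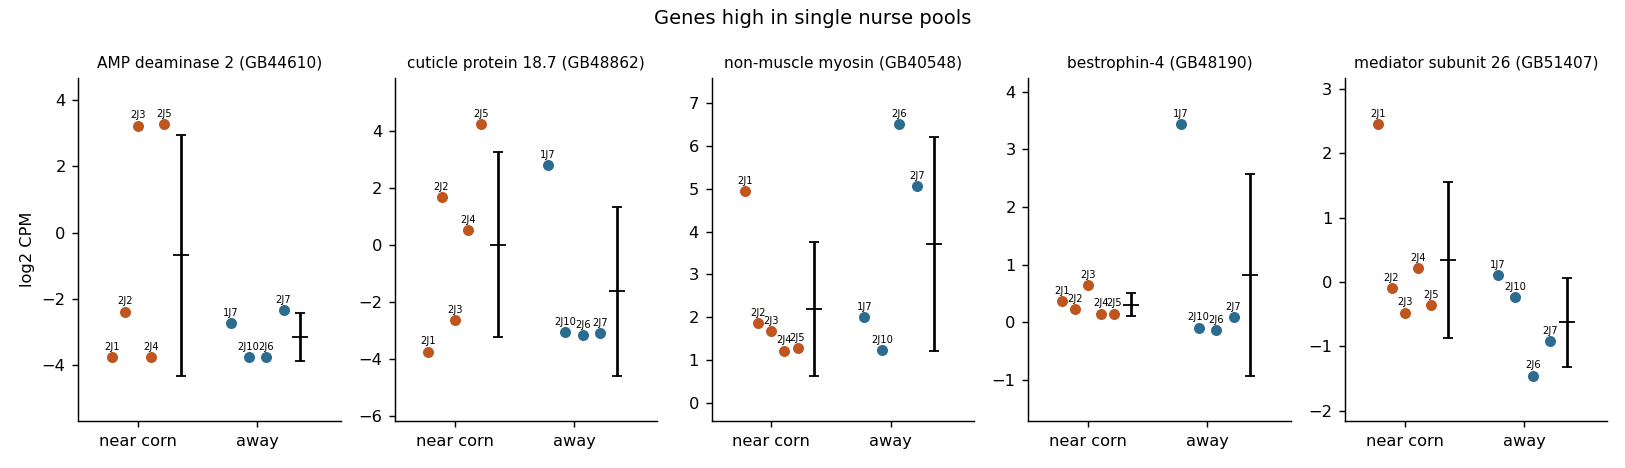
Level of 5 genes in log2 CPM in each nurse pool, near corn on the left (orange) and away on the right (blue), with the mean and SD of each group in black. AMP deaminase 2 is high in 2J3 and 2J5, the non-muscle myosin in 2J1, 2J6 and 2J7, bestrophin-4 in 1J7 and mediator subunit 26 in 2J1.

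Whether nurses and foragers of these sites differ in their response was tested as the difference of the castes' contrasts over 10734 genes measured in both. Limma called 0 genes (lowest adjusted p = 0.722). At an unadjusted p below 0.05 there were 712 genes (6.63%), with the nurse contrast above the forager contrast in 551 and below it in 161. Taken alone, the forager comparison had 2657 of 10976 genes (24.2%) at an unadjusted p below 0.05 in limma and the nurse comparison 454 (4.18%). Limma called 0 genes in either, and the median standard errors were 0.120 and 0.133. The paper's own test on counts called many more genes in foragers than in nurses. The negative binomial test used here was run on nurses alone. For alpha-amylase the difference, nurses minus foragers, was -3.60 (unadjusted p = 0.00607), for the chymotrypsin inhibitor -3.58 (p = 0.0119) and for CPR5 1.54 (p = 0.00871), each with a limma adjusted p of 0.722. These values come from a model over 9 nurse and 10 forager pools. The contrast for alpha-amylase in foragers was -0.65, for the chymotrypsin inhibitor -0.89 and for CPR5 0.05, and none of the 3 differences between castes passed the adjusted test.

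Nurses of the apiary study, sequenced as single brains after their colonies received pollen with clothianidin, a neonicotinoid, had other values for the same genes. Alpha-amylase averaged 2.49 ± 1.92 log2 CPM in exposed and 2.52 ± 1.74 in unexposed apiary nurses (SD, n = 15 bees each), a log2 fold change of -0.04, and the chymotrypsin inhibitor had 0.61. CPR5 had 0.43 and LOC100578072 had 0.34. The 15 bees of each group came from 3 colonies, and clothianidin was given to whole colonies, so bees are not independent replicates of exposure and no error over bees is given for these fold changes. By colony alpha-amylase averaged 1.61, 3.32 and 2.53 in exposed and 2.33, 2.37 and 2.86 in unexposed colonies, which overlapped. CPR5 averaged 2.49, 1.99 and 1.65 in exposed and 1.46, 1.53 and 1.85 in unexposed colonies, which overlapped too. The paper's own test on counts, with single apiary bees as samples, listed CPR5 as differing in nurses of both studies. The median over the 9 genes of the nurse list was -2.12 in the field and 0.38 over those measured in apiary nurses, where the lipase has no value. The list was chosen on the field libraries, so its field median follows from that choice and the medians cannot be compared. LOC725804 and AMP deaminase 2 are listed by the study for apiary nurses, so that their direction there was known. Both averaged higher in exposed nurses of both studies, at 1.65 and 2.47 in the field and 1.99 and 1.68 in the apiary. Their intervals in the field include 0. Exposed apiary bees spread widely in these genes, with an SD of 3.15 and 2.84, against 0.58 and 0.55 in unexposed bees. Means by colony are not given for them. In field foragers AMP deaminase 2 had -2.42, the opposite sign. The apiary values come from single bees and another year, and the difference between the studies was not tested.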

How the data were processed

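RNA of 9 field nurse pools was sequenced, and 10 field forager pools and 30 apiary nurses were used for comparison. Per the paper and the labels, the authors trimmed reads with Trimmomatic 0.36, aligned and counted them with STAR against amel 4.5 and its official gene set, removed genes with low counts, scaled each table on its own by TMM and deposited log2 CPM values with edgeR in R 3.6.3. These log2 values were tested with limma 3.58.1 (trend, two-sided, Benjamini-Hochberg over all genes, no covariate). The log2 values rise in equal steps, and all values below 20000 reads gave whole reads within 0.1, at a prior count of 2. Reads were tested with a negative binomial likelihood ratio test written here. Both were tested on simulated data. The prior count shrinks fold changes of genes with few reads. Nothing in the labels says that a pool was divided, so p-values cover the spread between pools.

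The members and lists were chosen with earlier results of these data known. Named genes came from these rules: the 9 genes of the study's nurse list; genes whose groups did not overlap, lowest p first, with at most 2 unnamed IDs per direction; in each list, members with an unadjusted p below 0.05 and the 4 with the highest level; genes called by either test; annotated genes with the largest SD within a group; and the 6 annotated genes with the lowest p for the difference between castes. Outside these rules, and chosen after their values were seen, are the rest of the complete list of 16 transcription factors (Foxp, LOC410253, big brother and the retinal homeobox gene) and AMP deaminase 2, LOC725804, LOC409360 and mediator subunit 26, whose mean is below 0 log2 CPM. The reference table of symbols matched 0 of 10852 IDs, so names come from the study. Its table pairs the 16 transcription factors with their IDs. The other 12 names were inferred, by finding the single ID in a list of the study whose fold change or membership fits what its text says of the named gene, and could be wrong. For the same reason 31 lists set by keyword, among them all marker lists of other tissues, could not be applied. Nurse and forager pools of the same colony carry the same label, and their deviations from the group means correlated at -0.19 to 0.551, so the castes were also compared within colonies. Alternatives were log2(CPM + 1) in place of the deposited values, a minimum mean of 1 CPM, scaling to equal medians or by quantiles, variances without a trend or robust, array weights, voom, the lane, and leaving out pools. The negative binomial test without single pools, the variance trend of the within-colony fit and the position of nurse pools between castes were chosen after the values were seen. That position was first computed with a gap of 2 log2 units between castes, which left 3 genes higher in foragers for each unexposed pool, and the gap was then lowered to 1. The count without genes of the nurse list was added later.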

Additional observations from a re-analysis of the deposited data

Results flagged for a closer look

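A single pool lay far from the others of its group, by the share of the group's range that its gap to the next pool takes, in 7 of 68 sets of values of named genes. Chance flags about 1 in 20 sets, but several of these genes were named for a wide spread within a group, so the count cannot be read against that rate. In exposed nurses the big brother gene (GB45157) was low in 2J2, at 6.16 log2 CPM, and the chymotrypsin inhibitor (GB50118) was high there, at 1.95. The non-muscle myosin (GB40548) was high in 2J1, at 4.95, and mediator subunit 26 (GB51407) was high there too, at 2.46. In unexposed nurses the retinal homeobox gene (GB49611) was low in 2J6, at 2.93. Bestrophin-4 (GB48190) and the cuticle protein gene LOC725804 (GB48862) were high in 1J7, at 3.44 and 2.79. On the first principal component of all nurse pools, 2J6 lay at -62.0, and its gap took 0.922 of the range of unexposed pools.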

How the results depend on the processing

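Limma called 0 genes under every alternative run except lane 2 alone, where 2J6 is the only unexposed pool and 5012 genes were called and 6181 had an unadjusted p below 0.05. The negative binomial test called 8 genes, and 4 to 16 without single pools (5 without 1J7, 15 without 2J1, 14 without 2J10, 12 without 2J2, 4 without 2J3, 2J4, 2J5 or 2J7 and 16 without 2J6). Without 1J7 and 2J7 together it called 22, 17 higher and 5 lower, whereas over all pools it called 1 higher and 7 lower. Without that pair 1374 genes had an unadjusted p below 0.05, 1225 higher and 149 lower. That count was 221 without 2J3 and 184 without 2J4. The limma count of 454 at that p was 1023 with array weights, which gave 2J6 the lowest weight, 0.114. It was 1218 with the lane as a term, 237 in lane 1 alone, 1787 without 1J7 and 2J7 and 208 to 960 without single pools. Of these genes 59.7% were higher in exposed pools, but 47.1% after quantile normalization, which moved the median fold change of all genes to -0.04. With the replicate block by colony, the difference between castes again gave 0 called genes and 555 at an unadjusted p below 0.05, and it changed no other call. That fit was first run with the variance trend over the difference between castes, which gave 525 such genes and 0 called. The trend was moved to the mean level of both castes after the values were seen. Leaving out colonies gave 324 to 1203 such genes, with 378 without 1J7, 339 without 2J2 and 463 without 2J4.

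In lane 1 alone 8 of 16 transcription factors averaged higher, with -0.059 for hairy (GB47799), -0.19 for SIX3, -0.15 for Sox-2, -0.12 for Lhx9, -0.17 for dachshund and -0.33 for slp2, and it gave 1.79 for the non-muscle myosin, -0.020 for myosin-IXb and -0.90 for the cuticle protein gene LOC725804. When single pools were left out, Foxp ran between -0.0029 and 0.50, hairy between -0.053 and 0.54 and dachshund between -0.082 and 0.59, each lowest without 2J6. The negative binomial test without 2J6 had 9 of 16 transcription factors higher, with -0.0002 for Foxp, -0.0944 for hairy, -0.1154 for SIX3, -0.1290 for dachshund and -0.0117 for slp2, and SIX3 had -0.0409 without 2J10. The lipase had 1.56 in lane 2 and 0.98 without 1J7 and 2J7, where an unnamed gene of the nurse list had 0.24. Bestrophin-4 had 0.031 with array weights, 0.45 in lane 2, 0.42 without 1J7 and 2J7, and -0.84 to 0.35 without single pools, the highest without 1J7. In the negative binomial test without 1J7 and 2J7 the lipase had 1.2639, bestrophin-4 0.4704 and GB41339 0.3930, while LOC410253, at 0.87, was called higher (adjusted p = 0.0276). Bestrophin-4 had 0.3949 without 1J7 and LOC725804 -0.6101 without 2J5. The causes were not tested. Genes under about 1 CPM rest on few reads, and no difference in them was detectable at this depth unless large.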

Other observations

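Pool 2J6 stood apart in nurses and its colony did not in foragers. On the first component of the forager pools, colony 2J6 lay at 17.2, within the range of -27.5 to 38.6 of the 10 forager pools. Across 10492 genes measured in both castes, the deviation of 2J6 from the other unexposed pools in nurses had a correlation of 0.139 with its deviation in foragers. Genes are not independent replicates, and the value is given as a description.

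The precision of the fold changes differed between levels. Among 238 genes with a mean below 1 CPM the median standard error of the log2 fold change was 0.386, and 24 had an absolute fold change above 1. Among 3460 genes between 6 and 9 log2 CPM it was 0.103, and 6 genes exceeded 1. It was 0.121 among 4694 genes between 3 and 6 log2 CPM and 0.154 among 253 genes above 9, so that it did not fall steadily with level.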
